A study of Rattus norvegicus with 12 samples.

Results

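Otx1, Otx2, Gbx2, En1, En2, Meis1, Meis2, Ptf1a, Lmx1a and Eomes are 10 genes that code for patterning and lineage transcription factors of the developing cerebellum and hindbrain. They were chosen by name out of 25885 gene names on the array and are read by 12 probes, since Lmx1a and Meis1 have 2 probes each. The array is the Agilent Whole Rat Gene Expression microarray (version 3), which measures mRNA as the fluorescence of labelled cRNA bound to 60-base probes. Of the 10 genes, 8 carry their name in all the array files. The probes of En1 and Eomes are named only in the newer annotation used for the 2 arrays of culture experiment 3, although their sequences are the same on all arrays.

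The samples were neuron-enriched cultures from the cerebella of 1-day-old Sprague-Dawley rats, harvested after 16 days in vitro (16 DIV). From day 2 until harvest, 6 cultures received 1 µM acetamiprid (ACE), a neonicotinoid insecticide that acts on nicotinic acetylcholine receptors, and the 6 control cultures received the solvent alone (0.001% DMSO). All cultures had 1% fetal bovine serum for the first 8 days and serum-free medium afterwards, with part of the medium replaced every 2 days. Each of the 6 culture experiments gave 1 control and 1 ACE array from cells of a single litter, pooled before plating, and the replicate number names the experiment. The study asked how chronic low-level ACE affects mRNA in cerebellar cells during their development.

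The anterior hindbrain is set off from the midbrain early in development, where Otx2 on the midbrain side and Gbx2 on the hindbrain side repress each other. The isthmic organiser forms at this border and signals through Fgf8 and Wnt1, and En1 and En2 are expressed around it. Within the cerebellum, Ptf1a in the ventricular zone directs progenitors to a GABAergic fate, while Lmx1a and Eomes mark cells that come from the rhombic lip, among them the unipolar brush cells. Meis1 and Meis2 belong to the TALE class of homeodomain proteins and act together with Pbx and Hox proteins. Several of these genes remain active after birth. Otx1 and Otx2 are found in the external granule layer, Meis1 in granule cells, Meis2 in neurons of the cerebellar nuclei, and Otx2 also in the choroid plexus.

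A difference between ACE and control passed the test for none of the 10 genes. By limma, 0 of the 12 probes had an adjusted p under 0.05, against 0 of 23796 probes over the whole array (0%), and 0 of the 12 had an unadjusted p under 0.05, against 3956 probes (16.6%) over the whole array, 1641 of them higher (6.9%) and 2315 lower (9.73%) in ACE. This split depended on the scaling, since 41.5% of the 3956 were higher here, 19.1% of 4216 after a shift of each array by its 75th percentile, and 51.5% with the deposited log2 values (2051 higher and 1935 lower). By the exact signed-rank test 0 of the 12 had an unadjusted p under 0.05, against 2755 probes (11.6%), and that test cannot go below 0.03125 with 6 pairs or below 0.0625 with 5. The groups overlapped for all 12 probes; over the whole array they did not overlap for 3 probes (0.0126%). For 9 of the 12 probes the 95% interval of the difference lay within 1.5-fold in either direction, and the other 3, those of Gbx2, Ptf1a and Eomes, had wider intervals. The fits put 11 of the 12 probes higher in ACE on average (8 of the 12 after the shift by the 75th percentile), with a median log2 difference of 0.06 over the 12 probes and of -0.005 over all probes tested. Some of these estimates were near 0 (0.006 for a Meis1 probe and 0.013 for En2), and those of Gbx2 and Ptf1a rested largely on 1 array each. Whether the 12 probes share a direction was not tested.

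**Figure D1:**
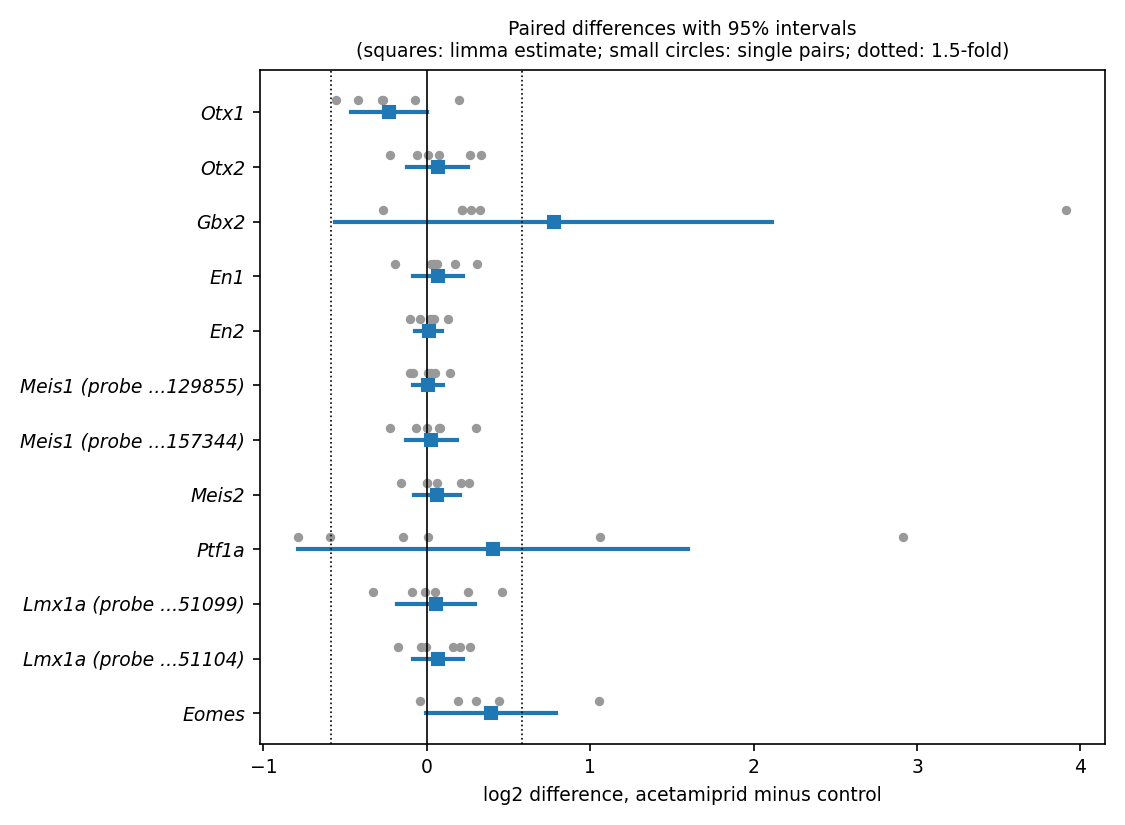
Log2 difference (ACE minus control, horizontal axis) of each of the 12 probes (vertical axis). Squares are limma estimates with 95% intervals as bars, small grey circles are the single pairs, and dotted lines mark 1.5-fold. All 12 intervals include 0, those of Otx1 (-0.47 to 0.003) and Eomes (-0.008 to 0.79) narrowly, and the widest are those of Gbx2 and Ptf1a, where a single pair lies far from the rest (3.91 and 2.91).

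Variation among the culture experiments was wider than the ACE differences. The F test of differences among the 6 experiments was past the adjusted threshold for 10 of the 12 probes, the exceptions being Gbx2 (adjusted limma p 0.301) and Ptf1a (0.496). This was so for most of the array, 19963 of 23796 probes (83.9%), so the count for the 10 genes is near the background. Over the 9 probes that were well above background on all 12 arrays, the median range between experiment means was 0.96 log2, and the median size of the ACE difference was 0.07. Over all probes tested these medians were 0.77 and 0.06, and a range over 6 means is wider by construction than a single mean difference. Experiment, litter and slide are the same factor here and cannot be told apart. The 3 arrays of each group from experiments 4 to 6 shared a scan batch.

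**Figure D2:**
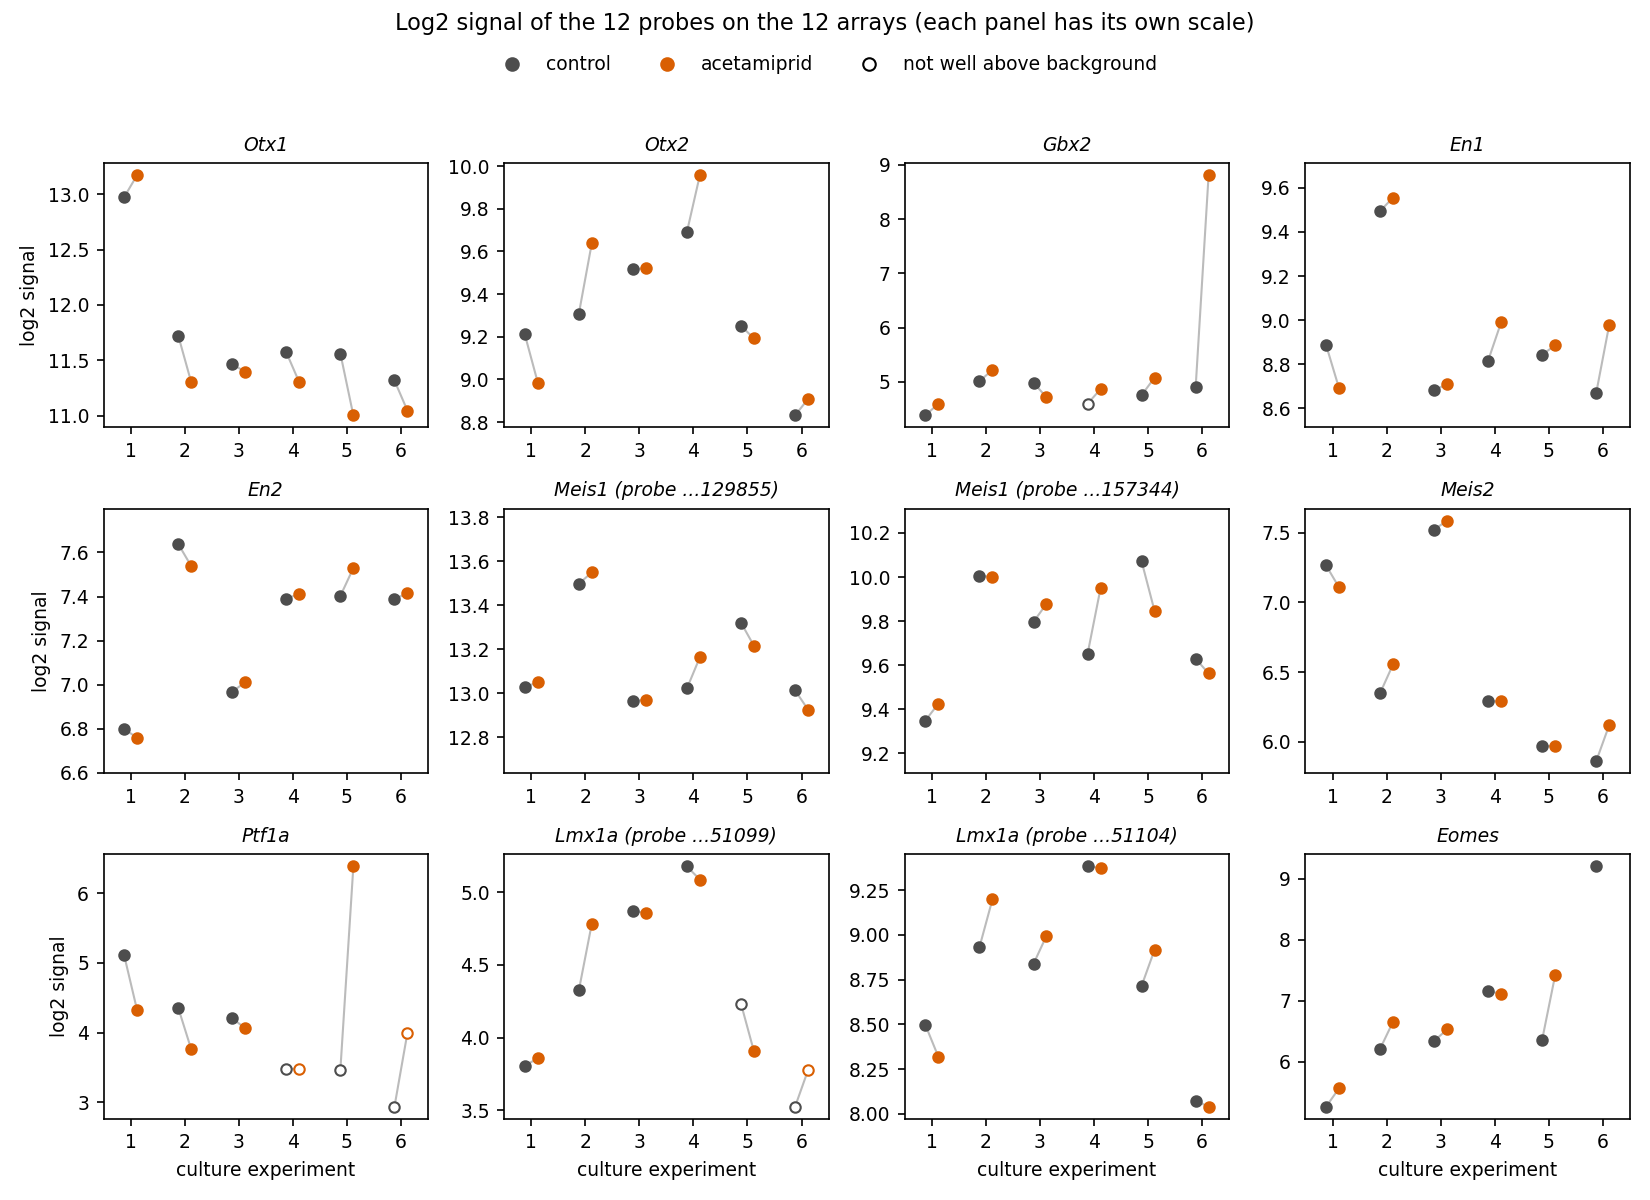
Normalised log2 signal (vertical axis, its own scale in each panel) of the 12 probes in the 6 culture experiments (horizontal axis). Grey circles are control and orange circles ACE arrays, a line joins the arrays of a pair, and open circles were not well above background. Arrays of a pair lie close together for most probes, Otx1 stands high on both arrays of experiment 1, and lone high values are seen for Gbx2 in ACE of experiment 6 (8.81) and Ptf1a in ACE of experiment 5 (6.38).

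Otx1, an orthodenticle homeobox gene, is read by a probe at chr14:102721451-102721510 of the rn4 assembly, on the minus strand. The position of this and the other probes relative to exons was not analysed here. Log2 signal in control ran from 11.32 through a median of 11.57 to 12.97, and in ACE from 11.003 through 11.30 to 13.17. The highest value of either group came from experiment 1, whose arrays (12.97 and 13.17) stood over 1 log2 above those of the other experiments. ACE was lower than control in 5 of 6 pairs, by 0.07 to 0.56 log2, and higher by 0.20 in experiment 1. The difference was -0.23 ± 0.098 (SE, n = 6 pairs; unadjusted limma p 0.0522, adjusted 0.305, exact signed-rank p 0.0938). With 1 experiment left out at a time it ran from -0.17 without experiment 5 (unadjusted limma p 0.130, adjusted 0.494) to -0.32 without experiment 1, the pair in which ACE was higher (0.00635, adjusted 0.182).

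The sequence of the Otx1 probe is shown because it ends in a repeat that other transcripts also hold, and that of Otx2 is shown beside it as the paralogue. Only the last 30 of 60 bases are printed, and the capitals mark the repeat CTGCTGCTGCTGCT.
Otx1: ggtccctatcatgttgCTGCTGCTGCTGCT
Otx2: ggttgactcttaggaatggacaatgtccca
Of 30367 probes, 10 (0.0329%) hold this repeat as printed and 22 (0.0724%) on either strand. In experiment 1 the Otx1 probe was 1.70 log2 above the mean of the other experiments, and 1.69% of all probes tested were at least as far above. The 21 other probes with the repeat, looked at after the Otx1 values were seen, differed between experiment 1 and the rest by -0.51 to 0.75 log2, with a median of 0.21. The probes of Otx1 and Otx2 share no run longer than 5 bases.

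Otx2, which specifies the anterior brain and is later expressed in granule cell precursors and choroid plexus, has a probe at chr15:24623454-24623513 (minus strand). Its log2 signal was 8.83, 9.28 and 9.69 in control and 8.91, 9.36 and 9.96 in ACE (lowest, median and highest of 6). The groups overlapped almost entirely, and ACE was the higher of the pair in 4 of 6 experiments. The difference was 0.07 ± 0.077 (SE, n = 6 pairs; adjusted limma p 0.687), with a 95% interval from -0.12 to 0.25. Experiment means ran from 8.87 in experiment 6 to 9.83 in experiment 4.

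Gbx2, the hindbrain counterpart of Otx2 at the border, had a dim signal. Its probe (chr9:89034799-89034858, minus strand) was well above background on 11 of 12 arrays, with log2 signals of 4.38, 4.83 and 5.01 in control and 4.60, 4.97 and 8.81 in ACE. The ACE array of experiment 6 alone was far from the others, at 364 intensity units before normalisation against 14.2 to 64.2 on the other 11 arrays. The fitted difference of 0.78 ± 0.56 (SE, n = 6 pairs; adjusted limma p 0.506) rested on that array, and was 0.15 without experiment 6. In the other 5 pairs the difference was between -0.27 and 0.32.

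The engrailed genes En1 and En2 code for homeodomain repressors of the midbrain-hindbrain region. Their probes are shown to let the paralogues be told apart, again as the last 30 bases, with AATAAA, the most common signal for polyadenylation, in capitals.
En1: gaaacctgtagtctggAATAAAatgttcac
En2: tatctgtgaaaaacccgtgtattagctatg
The motif AATAAA is found in 2547 of 30367 probes as printed (8.39%), in 3327 on either strand, and in 3 of the 12 probes described here. The probes of En1 (chrUn:9318672-9318731) and En2 (chr4:2471443-2471502), both on the minus strand, share no run longer than 7 bases.

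En1 gave log2 signals of 8.67, 8.83 and 9.50 in control and 8.69, 8.93 and 9.56 in ACE. Both maxima came from experiment 2, and all other arrays of both groups lay between 8.67 and 8.99. ACE was higher in 5 of 6 pairs, with a difference of 0.07 ± 0.064 (SE, n = 6 pairs; adjusted limma p 0.604) and a 95% interval from -0.08 to 0.22.

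En2 had the narrowest standard error of the 12 probes. Its log2 signal was 6.80, 7.39 and 7.64 in control and 6.76, 7.41 and 7.54 in ACE, and the pairs differed by -0.10 to 0.13. The difference of 0.01 ± 0.034 (SE, n = 6 pairs; adjusted limma p 0.870) had a 95% interval from -0.07 to 0.10, or from 0.953-fold to 1.07-fold. Experiments 1 (6.78) and 3 (6.99) were below the other 4 experiments, whose means were 7.40 to 7.59, and the F test among experiments gave an adjusted limma p of 0.000212.

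Meis1 and Meis2 code for homeodomain cofactors. Meis1 is read by a pair of probes on the minus strand of chromosome 14, A_64_P129855 at chr14:99693568-99693627 and A_64_P157344 at chr14:99694299-99694358. Their ends and that of Meis2 are shown because 1 of the Meis1 probes lies over an AATAAA (capitals) and the other does not.
Meis1, probe A_64_P129855: gacattgtaAATAAAttttgtgcaaaaagg
Meis1, probe A_64_P157344: acatgcaaaaataactatataagacattaa
Meis2: cttgtacatttctgttgatcactccgttat
The probes of Meis1 and Meis2 share no run longer than 5 bases.

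The Meis1 probe over the AATAAA had log2 signals of 12.96, 13.03 and 13.50 in control and 12.93, 13.11 and 13.55 in ACE. Its difference was 0.006 ± 0.039 (SE, n = 6 pairs; adjusted limma p 0.953), with an interval from 0.941-fold to 1.07-fold. The other Meis1 probe gave 9.35, 9.72 and 10.07 in control and 9.43, 9.86 and 10.00 in ACE, with a difference of 0.03 ± 0.066 (SE; adjusted limma p 0.855). Both probes had their highest experiment mean in experiment 2, although the highest single value of the second (10.07) was in control of experiment 5. Neither probe was higher in ACE in all pairs (4 of 6 and 3 of 6).

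Meis2 (chr3:101916822-101916881, minus strand) differed from Meis1 in how it varied among experiments. Its log2 signal was 5.86, 6.32 and 7.52 in control and 5.97, 6.42 and 7.59 in ACE, with a difference of 0.06 ± 0.058 (SE, n = 6 pairs; adjusted limma p 0.614). Experiments 3 and 1 were the highest, with means of 7.56 and 7.19, and the other experiments lay between 5.97 and 6.45. The F test among experiments gave an adjusted limma p of 0.000103, the lowest of the 12 probes. Experiments 1 and 3 were also those with the brightest arrays: the 75th percentile of the processed intensity was 3377 to 4384 on their 4 arrays and 1803 to 3171 on the other 8. The part of array brightness in the Meis2 and En2 patterns was not tested.

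**Figure D3:**
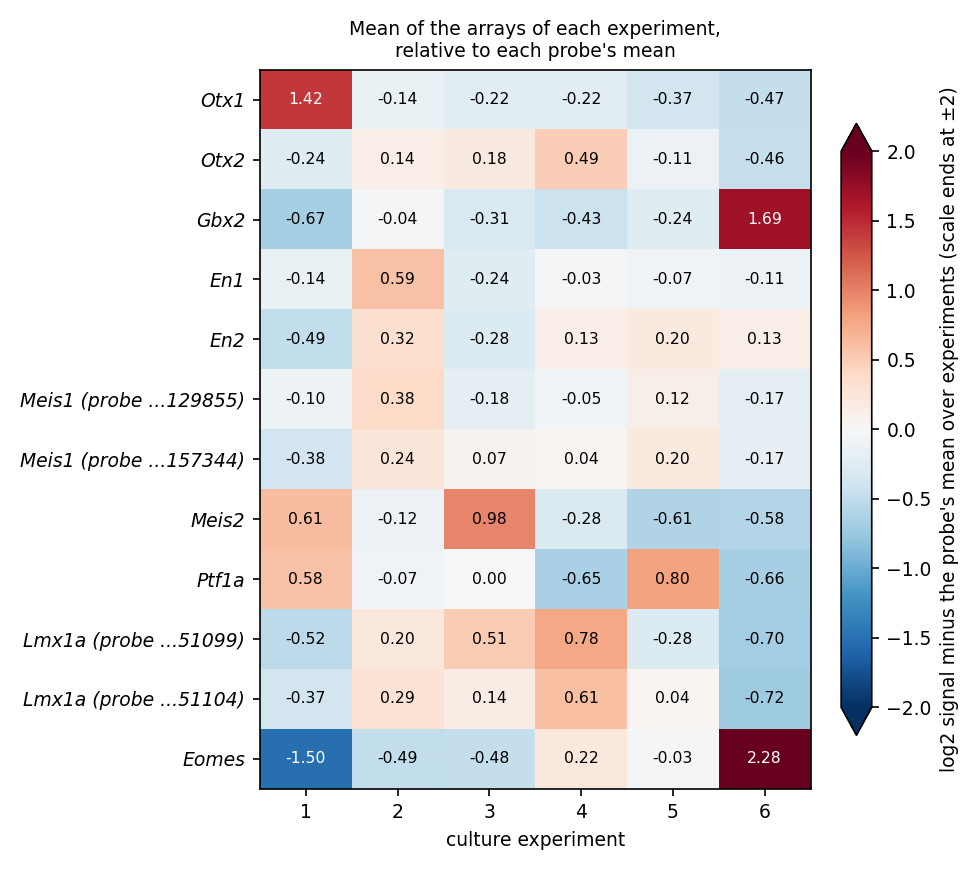
Mean normalised log2 signal of each culture experiment (columns) minus the mean over the 6 experiments, for the 12 probes (rows). Red is above and blue below the probe's own mean, the colour scale ends at 2 log2 either way, and the value for Eomes in experiment 6 (2.28) comes from the control array alone. Otx2 and both Lmx1a probes share the same extremes, experiment 4 above (0.49 to 0.78) and experiment 6 below (-0.72 to -0.46).

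Ptf1a, which directs ventricular zone progenitors to become Purkinje cells and GABAergic interneurons, was detected on the fewest arrays. Its probe (chr17:93496482-93496541, plus strand) was well above background on 3 control and 4 ACE arrays. Log2 signal was 2.94, 3.84 and 5.11 in control and 3.48, 4.03 and 6.38 in ACE. The ACE array of experiment 5 stood apart, 2.91 above its control, and 3 of 6 pairs had ACE higher. The difference was 0.41 ± 0.50 (SE, n = 6 pairs; adjusted limma p 0.699), and -0.09 without experiment 5, so no direction can be given.

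Lmx1a, a LIM homeodomain factor of the roof plate, rhombic lip and unipolar brush cells, has probes at chr13:83496753-83496812 (A_64_P051099) and chr13:83498450-83498509 (A_64_P051104), both on the plus strand. The latter was well above background on all 12 arrays, with log2 signals of 8.07, 8.78 and 9.38 in control and 8.04, 8.96 and 9.38 in ACE. The former was well above background on 9 arrays and gave 3.52, 4.28 and 5.18 in control and 3.78, 4.34 and 5.09 in ACE. For each probe the groups covered nearly the same range, and 3 of 6 pairs had the higher value in ACE. The differences were 0.07 ± 0.064 and 0.05 ± 0.10 (SE, n = 6 pairs; adjusted limma p 0.614 and 0.802).

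Both Lmx1a probes were highest in experiment 4 and lowest in experiment 6, the same experiments as for Otx2. For the brighter probe the experiment means were 8.06 in experiment 6 and 9.38 in experiment 4. Over the 12 arrays, which share 6 litters, the Pearson correlation of Otx2 with the Lmx1a probes was 0.942 (A_64_P051099) and 0.936 (A_64_P051104), and Lmx1a was the fifth and Otx2 the ninth most similar gene to the other among 14412 symbols. These are descriptions of pairs picked for their likeness.

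Markers of the cells in which Lmx1a and Otx2 are known were set beside these values. Of the unipolar brush cell genes, Calb2 was 10.93 and 10.87 in experiment 4 (control and ACE) and 9.21 and 9.27 in experiment 6, but its lowest values, 8.77 and 8.88, were in experiment 1. Tmem163 ran the other way, with 11.27 and 11.25 in experiment 6. The granule cell list mean was 8.52 and 8.47 in experiment 4 and 7.94 and 7.90 in experiment 6. Its lowest control value, 7.68, was in experiment 1, and its highest ACE value, 8.64, in experiment 2. Outside these cell types, the Purkinje cell list mean was also highest in experiment 4 (8.77 and 8.80) and lowest in experiment 6 (8.25 and 8.06). The choroid plexus marker Ttr, a thyroid hormone carrier, ranged from 7.90 to 15.40 over the 12 arrays, with its highest value in control of experiment 3, where Otx2 was 9.52. In experiment 4, where Otx2 was highest, Ttr was 14.83 in control and 11.38 in ACE, and in experiment 6, where Otx2 was lowest, it was 11.70 and 7.90, the latter its lowest value. Folr1, another choroid plexus gene, was highest in experiment 1 (13.14 and 13.05), where Ttr was 10.08 in control and 13.14 in ACE. In experiment 4 Folr1 was 12.56 and 12.60, and it was lowest in experiment 6, at 11.91 and 11.57. The mean log2 level of the 11 choroid plexus probes, Otx2 among them, was 7.47 to 8.51 in control and 6.97 to 8.17 in ACE. The part of these cell types in the Otx2 and Lmx1a values was not tested, and in cultures of mixed cells fewer cells of a type and less RNA per cell cannot be told apart.

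Eomes (Tbr2), a T-box factor of rhombic lip derivatives, is read at chr8:123383362-123383421 (plus strand). The spot on the ACE array of experiment 6 was marked as an outlier by the software that reads spot intensity (Agilent Feature Extraction) and left out, so that 5 pairs remain. Log2 signal was 5.26, 6.35 and 9.20 in control (n = 6) and 5.56, 6.66 and 7.42 in ACE (n = 5). The control array of experiment 6 held the highest value, and the spot left out would have been 8.06, above every array but that one. ACE was higher in 4 of 5 pairs, by 0.19 to 1.05, and lower by 0.04 in experiment 4. The difference was 0.39 ± 0.16 (SE, n = 5 pairs; unadjusted limma p 0.0532, adjusted 0.306, exact signed-rank p 0.125), with a 95% interval from 0.995-fold to 1.73-fold. Without experiment 5, which held the widest pair (1.05), it was 0.22 (unadjusted limma p 0.0568), and without experiment 4 it was 0.50 (0.0297). With the marked spot kept, the difference was 0.13 (unadjusted limma p 0.624).

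For each gene with a probe well above background on all arrays, the 2 genes with the most similar course over the 12 arrays were looked up. For En1 these were Sec63 (Pearson r of 0.964) and Rbbp8 (0.949), for En2 Zfp629 (0.971) and Tfap2a (0.966), and for Meis2 Sdcbp (0.986) and Mdfic (0.979). Otx1 was closest to Vsig10l and Gzma (0.987 each), Otx2 to Dlg2 (0.953) and Myrip (0.946), and Eomes, over 11 arrays, to Polg2 (0.955) and Cd74 (0.949). The brighter Lmx1a probe was closest to Hs3st2 (0.962) and Elmod1 (0.959). The Meis1 probe over the AATAAA was closest to Ccpg1 (0.963) and Plxdc1 (0.957), and the other had Josd1 (0.951) among its closest 2. Each was among the highest of 14412 symbols over arrays that share litters, so these values describe a ranking and carry no test.

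Other genes of the same pathways were counted from 5 lists with 70 genes in all, of which 67 are on the array and 58 were tested, by 69 probes. ACE was higher than control at 2 of the 69 probes and lower at 5 (unadjusted limma p under 0.05; 10.1% in all, against 16.6% over the array), and 0 had an adjusted p under 0.05. Their median log2 difference was -0.02. The number of calls among the 69 probes depended on the processing. It was 14 after the percentile shift described above, and 14 within the shared scan batch. Over the array, 4216 of 23796 probes were called after that shift. The share of the lists was thus not below that of the array under every setting.

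In the isthmic organiser list 5 of 17 probes were called (29.4%, against 16.6% over the array), 2 higher and 3 lower, and whether the list differs from the array was not tested. Pax5, a paired box factor expressed with Pax2 at the organiser, had the lowest p: it was 9.17 in control and 8.89 in ACE on the log2 scale, lower in 6 of 6 pairs, with a difference of -0.28 ± 0.032 (SE; unadjusted limma p 8.83e-05, adjusted 0.141). Pou3f1, a POU domain factor, differed by -0.11 (5 of 6 pairs lower, adjusted limma p 0.264) and Spry2, an FGF antagonist, by -0.06 (6 of 6 lower, adjusted limma p 0.296). Under 15 alternative settings the unadjusted p rose over 0.05 in 9 for Pou3f1 and in 10 for Spry2. On the higher side were Sp5, a target of Wnt signalling, at 0.23 (6 of 6 pairs higher, adjusted limma p 0.171) and a probe of Spry4, another FGF antagonist, at 0.27 (5 of 6 pairs higher, adjusted limma p 0.213). A second Spry4 probe differed by -0.17 with 1 of 6 pairs higher, so the gene has no settled direction. Under the same 15 settings Sp5 ran from 0.08 to 0.28, and its unadjusted p rose over 0.05 in 3. For Pax5 and the first Spry4 probe it did so in 1. The difference farthest from 0 in this list was that of Il17rd, an inhibitor of FGF signalling, at -0.53 ± 0.23 (SE, n = 6 pairs; unadjusted limma p 0.0543, adjusted 0.308, exact signed-rank p 0.03125). ACE was lower in 6 of 6 pairs, with differences of -1.497 and -1.14 in experiments 4 and 5 and of -0.28 to -0.0097 in the others. Wnt1 was -0.13 (unadjusted limma p 0.123) and Fgf18 -0.06 (0.479).

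Of the rhombic lip and glutamatergic lineage, 1 of 15 probes was lower and 0 were higher, against 9.73% lower and 6.9% higher over the array. The lower probe was that of Wls, which is needed for Wnt secretion, at -0.09 (6 of 6 pairs lower, adjusted limma p 0.216). Atoh1, the factor that defines the rhombic lip, had a difference of -0.06 (unadjusted limma p 0.397), and Pax6, found in granule cells, of -0.10 (0.102). Calb2, a calcium-binding protein of unipolar brush cells, and Lhx2, a LIM homeodomain factor, lay on the other side at 0.13 (0.0655) and 0.17 (0.207), each higher in 5 of 6 pairs. The estimate was above 0 for 5 of the 15 probes and below 0 for 10. Of the roof plate list 1 of 10 probes was lower, near the 9.73% over the array. That was a probe of Msx2 at -0.10 (5 of 6 pairs lower, adjusted limma p 0.214).

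None of the 13 probes of the ventricular zone and GABAergic lineage had an unadjusted limma p under 0.05, and none of the 14 probes of the TALE cofactors had one, against 16.6% over the array. In the former list, Gad1, which makes GABA, differed by 0.21 and 0.23 on its 2 probes, and Gad2 by 0.14. The estimate was above 0 for 10 of the 13 probes, and the lowest was -0.18. In the latter, differences ran from -0.10 to 0.09, with Pbx2 highest at 0.09 (unadjusted limma p 0.0503).

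**Figure D4:**
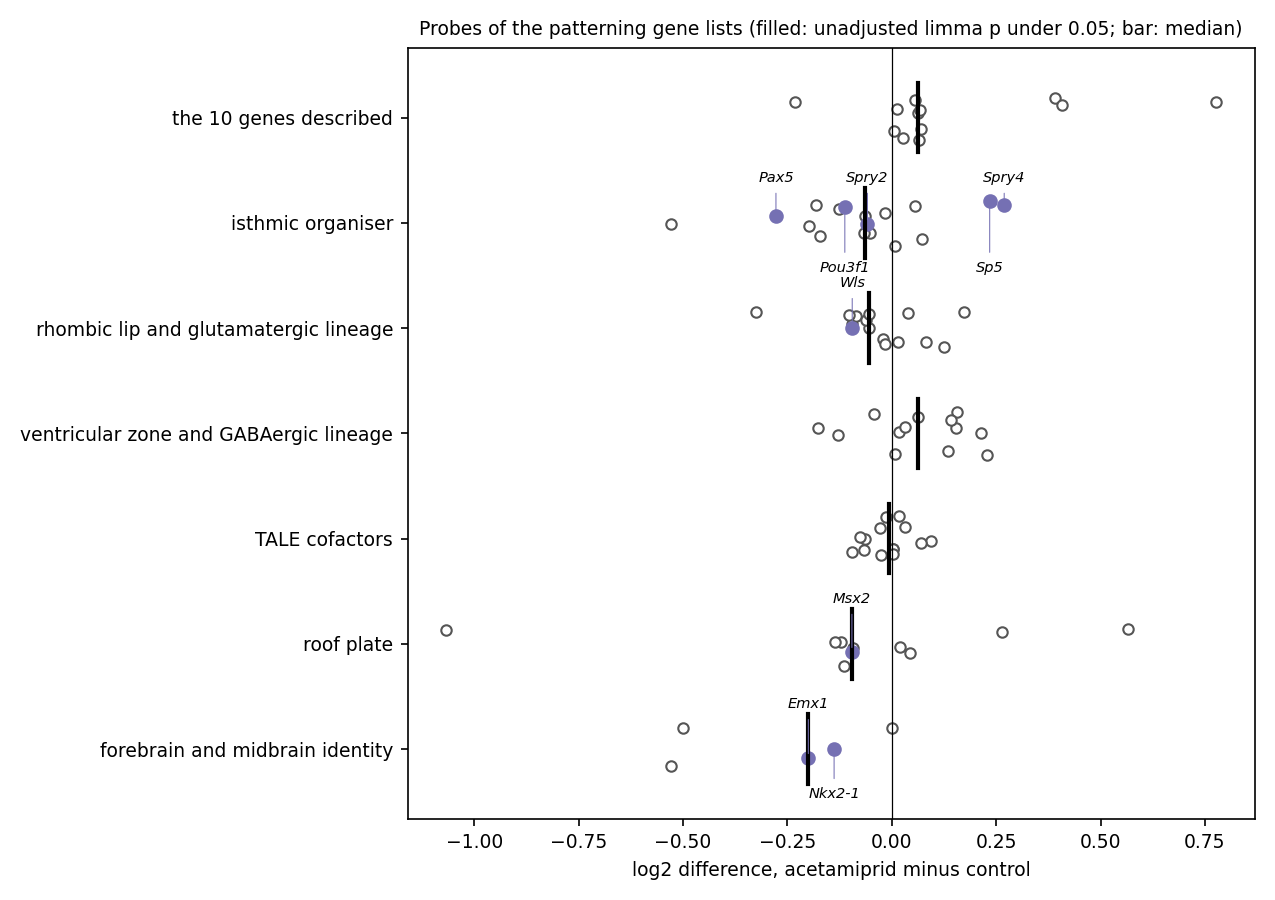
Log2 difference (ACE minus control, horizontal axis) of every tested probe of the 10 genes and of the gene lists (vertical axis, 1 list per row, points spread vertically for legibility). Filled circles had an unadjusted limma p under 0.05 and are named, open circles did not, and black bars are list medians. Filled circles are 0 of the 12 probes of the 10 genes and 5 of the 17 isthmic organiser probes, against 16.6% over the array, and the difference between lists was not tested.

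A list of forebrain and midbrain identity genes was used to look at the region of origin. Of its 14 genes 12 are on the array and 5 passed the filter on low signals, with Six3 and Foxa2 among those that did not. Emx1 (8.66 in control, 8.46 in ACE) and Nkx2-1 (5.57 and 5.44) were lower in ACE at an unadjusted limma p under 0.05, by 0.20 and 0.14, with adjusted limma p-values of 0.198 and 0.236. These were 2 of the 5 probes tested, against 9.73% lower over the array, and of 15 alternative settings the call was lost in 2 for Emx1 and in 7 for Nkx2-1.

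Markers of cerebellar neurons were looked up among the probes that passed the filter on low signals: 11 of 13 granule cell, 13 of 16 Purkinje cell and 12 of 15 GABAergic interneuron probes were well above background on all 12 arrays. So were 19 of 20 astrocyte, 15 of 15 oligodendrocyte, 15 of 15 microglia and 10 of 15 skeletal muscle probes. Over the whole array this was so for 20208 of 23796 probes (84.9%), so the neuronal shares are near that of any tested probe. By the mean of log2 values the muscle list was the least even of the lists, with levels of 6.99 to 11.27 in control and 6.81 to 9.96 in ACE, and a median difference of -1.12. At an unadjusted limma p under 0.05, 4 of its 15 probes were lower in ACE and 0 higher, against 9.73% lower over the array. By its summed level the choroid plexus list varied more, from 13.19 to 15.73 log2 in control and 12.34 to 14.73 in ACE, against 14.70 to 17.06 and 14.91 to 16.00 for muscle. That sum rests mostly on its brightest probes, those of Ttr and Folr1. Experiment means of Ttr ranged over 5.40 log2, against 1.35 for Folr1. The list's other probes well above background on all arrays had ranges of 0.84 to 1.02. Probes called in either direction were 4 of 20 for astrocytes, 3 of 15 each for oligodendrocytes and microglia, 2 of 13 for granule cells, 2 of 16 for Purkinje cells and 1 of 15 for GABAergic interneurons, against 16.6% over the array. The difference of the muscle list mean was -3.99 in experiment 2, -1.99 in experiment 6 and -0.76 in experiment 1, and -0.37 to 0.02 in the other 3 pairs. The part of these cell types in the values of the 10 genes was not tested.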

How the data were processed

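Gene expression was measured on 12 one-colour Agilent arrays. The authors obtained spot intensity from Agilent Feature Extraction, which subtracts background (per the file headers, version 11.0.1.1 on the arrays of replicate 1 and 11.5.1.1 on the others). They also deposited log2 values, quantile normalised and centred on each probe's median, per the study's methods; these had column medians of -0.020 to 0.017 and correlated at 0.997 to 0.999 per array with centred values computed here, and were used as an alternative. The deposited intensity files were the main source. Control spots were removed, spots marked as outliers were set to missing, and log2 processed intensity was quantile normalised and averaged per probe. Probes above the 20th percentile on at least 7 arrays, with at least 4 complete pairs, were kept (23796 of 30367 probes).

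Each probe was fitted with limma 3.58.1 in R 4.3.3 (lmFit and eBayes, two-sided) with the replicate number as a block, with Benjamini-Hochberg adjustment over all probes and a threshold of 0.05. A two-sided exact signed-rank test over pairs was run because the study's methods name a paired rank test. The block rests on the common litter of each experiment; deviations of control and ACE arrays from their group means correlated at 0.434 to 0.909 for shared numbers and at -0.433 to 0.384 for others. Control was always at place 1 and ACE at place 3 of the slide, so that place and exposure cannot be told apart. "Well above background" is a flag set by Agilent Feature Extraction. Of the gene spots, 75.4 to 91.0% per array carried it, and the 75th percentile of intensity was 1803 to 4384; the number of arrays limits the precision. No spot was saturated (0 spots). Arrays of a group correlated at 0.991 at most, so none held the values of another.

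Probe names were taken from the newer annotation, which renames 3062 probes. Probe positions are those of the files (rn4). The 10 genes and all gene lists were chosen with earlier results of these data known. Genes named from the lists were up to 3 per list and direction with the lowest unadjusted limma p under 0.05, and genes most similar to each of the 10 were the highest 2 by Pearson correlation; Atoh1, Pax6, Calb2, Lhx2, Wnt1, Fgf18, Il17rd, Gad1, Gad2 and Pbx2 were added for context after their values were seen. Values of some single genes that these rules and lists hold are not reported here. The pipeline was tested on simulated data. For reading, data.table (version 1.17.8) was used in R, and Python 3.11.15 with matplotlib 3.10.9 drew the figures. Alternatives covered the normalisation, the background correction, the source of values, the filter, outlier spots, the block, each replicate left out and the largest scan batch.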

Additional observations from a re-analysis of the deposited data

Results flagged for a closer look

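Among the 24 sets of arrays tested (12 probes in each group), 6 had an end value that stood apart from the rest by Dixon's criterion. Chance gives about 1 in 20, and over all probes tested it was 4052 of 47592 sets (8.51%). The sets are not independent, since the groups share litters and En1 and Otx1 are each counted in both. En1 was highest in replicate 2 of both groups, at 9.50 in control (next value 8.89) and 9.56 in ACE (next 8.99). Otx1 was highest in replicate 1 of both groups, at 12.97 in control (next 11.72) and 13.17 in ACE (next 11.40). Gbx2 in ACE replicate 6 was 8.81 against a next value of 5.22, and Ptf1a in ACE replicate 5 was 6.38 against 4.32; in both cases the control array of the same experiment (4.90 and 3.47) did not share the high value. The cause of these values was not tested.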

How the results depend on the processing

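No adjusted call for the 12 probes appeared under any alternative (0 throughout). Of 177 recomputed values, 164 kept their direction and 13 reversed, all of them of differences that did not pass the test. At an unadjusted limma p under 0.05, Otx1 was the 1 probe called after the shift by the 75th percentile, with normexp background and within the scan batch of 3 pairs, and Otx1 and Eomes were the 2 called when probes had to be well above background on at least 10 arrays. Leaving out each replicate in turn gave 0 to 1 of the 12 probes (Otx1 without replicate 1, Eomes without replicate 4), 0 to 2 with all remaining pairs in the same direction, and 8 to 10 with differences among experiments.

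Reversed values after the shift by the 75th percentile were those of En2 (-0.047), Lmx1a probe A_64_P051099 (-0.10) and Meis2 (-0.024), and with normexp that of Meis1 probe A_64_P129855 (-0.014). Within the scan batch, Lmx1a probe A_64_P051099 was -0.056 and Meis1 probe A_64_P129855 was -0.017. Over the fits without 1 replicate, En2 ran from -0.0098 to 0.036, Ptf1a from -0.093 to 0.65, Lmx1a probe A_64_P051099 from -0.026 to 0.13, Meis1 probe A_64_P129855 from -0.022 to 0.028 and Meis1 probe A_64_P157344 from -0.027 to 0.078.

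The 7 calls among the 69 pathway probes became 14 after the shift by the 75th percentile and within the scan batch, 11 when probes had to be well above background on at least 10 arrays, and 6 to 11 without 1 replicate. Over the array 806 probes were called higher and 3410 lower of 23796 after the shift, and 1353 and 1946 of 23610 within the scan batch. With the stricter background filter these were 1602 and 2265 of 21242. Without 1 replicate they ran from 1163 and 1648 (replicate 2) to 1592 and 2569 (replicate 3). Of 15 alternatives, Pou3f1 lost its unadjusted call in 9, Spry2 in 10, Nkx2-1 in 7, Sp5 and Wls in 3, Msx2 and Emx1 in 2, and Pax5 and Spry4 in 1. Without the replicate block the pathway calls were 0, calls over all gene lists fell from 30 to 0, calls over the whole array from 3956 to 81, and Eomes was -0.099. With the replicate block as a random effect there were 12 pathway calls and 5 adjusted calls over the whole array, none of them among the 10 genes. Calls by the signed-rank test stayed at 0 of the 12 probes with the normal approximation and when the pairing was ignored (exact rank-sum test). For the changes named in this paragraph the cause was not tested. The probes of Gbx2, Ptf1a and Lmx1a (A_64_P051099) were dim, which limits what their values can show. With normexp the differences of Gbx2 and Ptf1a were 0.41 and 0.17, and the part of dimness in these values was not tested.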
